A study of Homo sapiens with 9 samples.

Results

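The genes described here are 10 regulators of the G1 phase of the cell cycle, chosen by their Ensembl IDs from a ribosome profiling count table of 19569 gene IDs. They are the D-type cyclins CCND2 and CCND3, the E-type cyclins CCNE1 and CCNE2, the kinases CDK2, CDK4 and CDK6, the inhibitors CDKN1A and CDKN1B, and the transcription factor E2F1. All 10 had counts in every library and passed the low-count filter. The cells of all 3 groups were of 1 line, Jurkat clone E6-1, derived from a human T cell leukaemia and labelled T lymphoblast. There were 3 biological replicates each of non-activated cells, called resting here, of cells activated for 5 h and of cells activated for 12 h. Activation used anti-CD3 antibody coated on the plate at 10 µg/mL and anti-CD28 antibody in the medium at 5 µg/mL. The labels do not describe how the resting cells were plated or how long they were kept, so time in culture and activation cannot be told apart. Whether replicates were separate cultures is not said beyond the word biological, so p-values measure the spread between these libraries.

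In G1, D-type cyclins bind CDK4 or CDK6, and E-type cyclins bind CDK2. These kinases phosphorylate the retinoblastoma protein, which then releases E2F factors, and E2F1 and its relatives switch on genes for DNA replication. The products of CDKN1A (p21) and CDKN1B (p27) bind cyclin-CDK complexes and inhibit CDK2 in particular. In normal T cells, signals through the T cell receptor and CD28 move quiescent cells into G1, with p27 falling and D-type cyclins rising. Jurkat is a leukaemia line that divides in culture without stimulation, so its resting cells are not quiescent in that sense.

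A footprint is the mRNA fragment covered by a translating ribosome, and the number of footprints of a gene depends on both its mRNA and how heavily that mRNA is translated. These 2 parts cannot be told apart in these files, and in a population fewer cells translating a gene cannot be told from less translation in each cell. Library totals ran from 4343515 to 18506509 counts, and the shallowest library was replicate 2 of the 12 h group. Across genes, Pearson's r of log2 levels was 0.978 to 0.987 for libraries of the same group and 0.948 to 0.968 for libraries of different groups. Levels are given as CPM, counts brought to a common library size with edgeR's TMM factors, so all changes are relative to the scaled library. Coding lengths were not used here, and levels of different genes are therefore not compared with each other. Markers of the labelled cell type and of other cell types were not analysed here, because neither the files nor the gene table used pairs other IDs with symbols.

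The largest change among the 10 genes was the rise of CDKN1A, followed by its partial return. CCND3 and CDKN1B were both lower at 5 h than at rest, and both had come back by 12 h. E2F1 was higher at 5 h and at 12 h. CDK6 was lower at 12 h by a small factor, while CDK2 and CDK4 were not called in any comparison. The plot of footprint levels by library shows these courses.

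**Figure D1:**
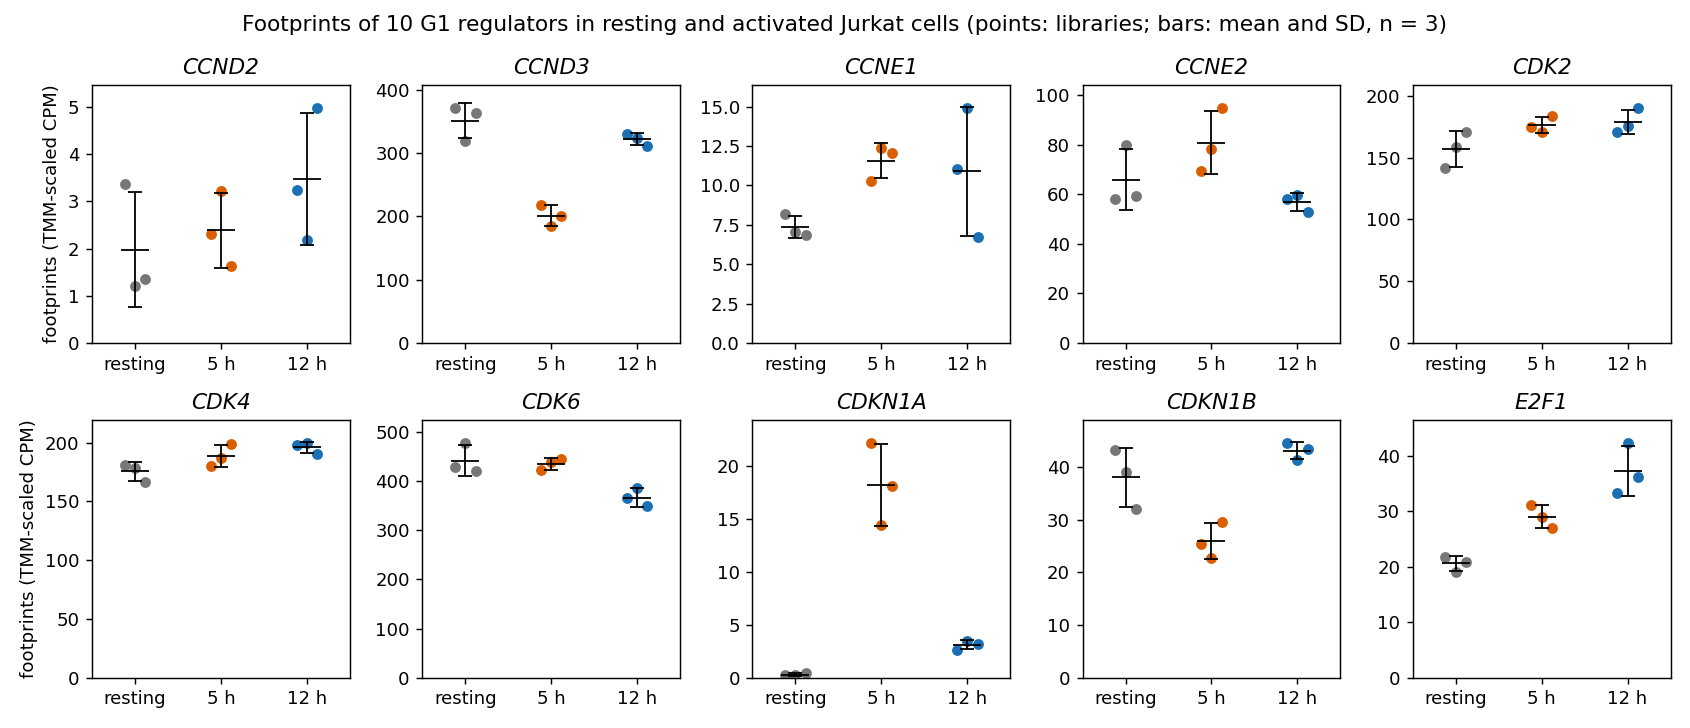
Footprint levels of the 10 genes in TMM-scaled CPM (vertical axes, each from 0 and each with its own scale) in resting, 5 h and 12 h libraries. Points are single libraries, and bars give the mean and SD of 3 libraries; CDKN1A stands at 14.4 to 22.2 CPM at 5 h and under 0.42 CPM in every resting library, and CCND3 and CDKN1B are lowest at 5 h.

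Early changes were sought by setting 5 h against resting cells. Of the 10 genes, CDKN1A and E2F1 were called higher and CCND3 and CDKN1B lower, at an adjusted p under 0.05. Among all 13920 IDs tested, 16% were called higher and 18.4% lower, 34.5% in all, so 4 of 10 is close to the background. Their median absolute log2 fold change was 0.40, against 0.42 over all IDs tested. All 5 h libraries lay above all resting ones for 3 of the 10 genes and below them for 2, where 23.1% and 22.6% of all IDs did so, 45.7% in all.

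Later changes were sought by setting 12 h against resting cells. CDKN1A and E2F1 were called higher and CDK6 lower, 3 of 10, where 15.8% of all IDs were called higher and 19.3% lower, 35.1% in all. The median absolute log2 fold change of the 10 genes was 0.24, against 0.43 over all IDs tested. All 12 h libraries lay above all resting ones for 4 of the 10 genes and below them for 1, against 22.1% and 23.7% of all IDs, 45.8% in all. The comparisons with resting cells share the same 3 resting libraries, so they are not independent of each other.

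Movement between the time points was tested directly, as 12 h against 5 h. Here 5 of 10 were called: CCND3 and CDKN1B higher, and CDKN1A, CCNE2 and CDK6 lower. The background was 11.6% higher and 13.5% lower, 25.1% in all. The count of 5 was 3 without 5 h replicate 3, when CCNE2 and CDK6 were no longer called. The median absolute log2 fold change was 0.43, against 0.33 over all IDs tested. All 12 h libraries lay above all 5 h ones for 3 of the 10 genes and below them for 3, against 18.3% and 20.8% of all IDs, 39.1% in all.

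**Figure D2:**
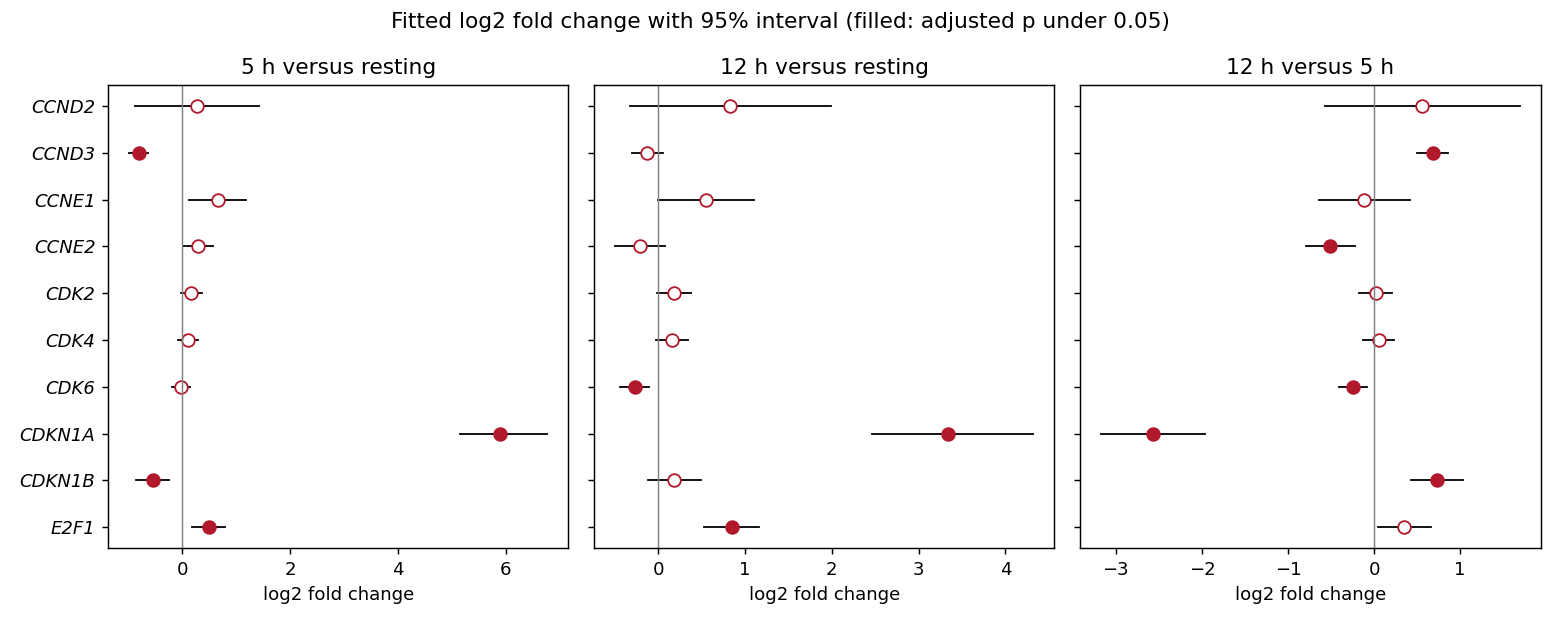
Fitted log2 fold change (horizontal axes) of the 10 genes in the 3 comparisons, with 95% intervals of the edgeR fit as lines; filled points have an adjusted p under 0.05. The point of CDKN1A lies at 5.90 for 5 h versus resting, 3.34 for 12 h versus resting and -2.56 for 12 h versus 5 h, and those of CDK2 and CDK4 lie within 0.2 of 0 in all 3 comparisons.

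CCND3 (ENSG00000112576.13), a D-type cyclin of lymphoid cells, dipped at 5 h. It stood at 370, 319 and 363 CPM in the resting libraries, at 217, 185 and 201 CPM at 5 h, and at 329, 324 and 311 CPM at 12 h. Every 5 h library lay below every resting and every 12 h library. The mean was 201 ± 16.1 CPM at 5 h against 351 ± 27.7 CPM at rest (SD, n = 3 each), a log2 fold change of -0.81 ± 0.09 (SE). The adjusted p was 1.18e-07 in the quasi-likelihood test of edgeR, adjusted over all IDs by Benjamini-Hochberg, and 5.8% of all IDs tested had a lower log2 fold change. From 5 h to 12 h CCND3 gained 0.68 ± 0.09 on the log2 scale (edgeR adjusted p = 2.59e-06). At 12 h its mean of 321 ± 9.35 CPM, against 351 ± 27.7 CPM at rest, was not called different: the log2 fold change was -0.13, with a 95% interval from -0.31 to 0.05 (edgeR adjusted p = 0.28). These values rest on 7641 to 9591 counts per group. At the mean count of a single library, counting alone gives a coefficient of variation of 1.77% at rest, 1.90% at 5 h and 1.98% at 12 h. The libraries themselves had 7.90%, 8.02% and 2.91%.

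CCND2 (ENSG00000118971.9), another D-type cyclin, had few footprints. It had 29, 11 and 13 counts in the resting libraries, 23, 43 and 30 counts at 5 h and 38, 10 and 37 counts at 12 h. In CPM these were 3.38, 1.21 and 1.35 at rest, 2.32, 3.22 and 1.63 at 5 h, and 3.25, 2.19 and 4.97 at 12 h. All 3 groups overlapped. The log2 fold change was 0.27 at 5 h, with a 95% interval from -0.88 to 1.42, and 0.83 at 12 h, with an interval from -0.33 to 1.99 (edgeR adjusted p = 0.738 and 0.269). At this depth the intervals are wide and hold both falls and rises, so the direction of any change of CCND2 was not settled. Resting replicate 1 was the highest of its group, and without it the log2 fold changes were 0.88 and 1.44, still not called. Without 5 h replicate 2 the value at 5 h was -0.02.

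CCNE1 (ENSG00000105173.14), cyclin E1, is the classical partner of CDK2 at the entry to S phase. It stood at 8.15, 7.03 and 6.84 CPM at rest, at 10.3, 12.4 and 12.1 CPM at 5 h, and at 11.04, 14.9 and 6.72 CPM at 12 h. All 5 h libraries lay above all resting ones, whereas the 12 h libraries were spread from below the lowest resting value to above the highest 5 h value. The mean was 11.6 ± 1.125 CPM at 5 h against 7.34 ± 0.709 CPM at rest (SD, n = 3 each). The log2 fold change of 0.66 ± 0.26 (SE) at 5 h had an edgeR adjusted p of 0.0507, just outside the threshold. Under 4 of 16 alternatives it was called, with adjusted p down to 0.0197 under library totals alone. At 12 h the mean was 10.9 ± 4.09 CPM, and the log2 fold change against rest was 0.55 ± 0.27 (edgeR adjusted p = 0.118). The 12 h value depended on single libraries. Without 12 h replicate 3 the log2 fold change was 0.79 and was called (edgeR adjusted p = 0.0265), and without 12 h replicate 2 it was 0.28 (0.485). Under library totals alone it was called at 0.74 with an adjusted p of 0.0352.

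CCNE2 (ENSG00000175305.18), cyclin E2, also binds CDK2. Its levels were 58.0, 80.0 and 59.5 CPM at rest, 69.6, 78.2 and 94.6 CPM at 5 h, and 58.2, 59.8 and 52.97 CPM at 12 h. The 12 h libraries lay below all 5 h libraries, while the resting libraries overlapped both. CCNE2 averaged 57.0 ± 3.56 CPM at 12 h against 80.8 ± 12.7 CPM at 5 h (SD, n = 3 each), a log2 fold change of -0.51 ± 0.14 (SE, edgeR adjusted p = 0.00682). The call was lost without 5 h replicate 3, the highest of all 9 libraries, when the log2 fold change was -0.35 and the adjusted p 0.102. It was also lost in limma on the authors' log2 values, with an adjusted p of 0.0781. Against rest the log2 fold change was 0.30 at 5 h, with a 95% interval from 0.02 to 0.58, and -0.21 at 12 h, with an interval from -0.50 to 0.08 (edgeR adjusted p = 0.0878 and 0.258). The 5 h value was called without resting replicate 2, at 0.46 with an adjusted p of 0.00961, and without 5 h replicate 1, at 0.39 with 0.0328. Without 5 h replicate 3 it was 0.13 with an adjusted p of 0.521. It was also called under upper-quartile scaling (0.0474), under library totals alone (0.00726) and with at least 50 counts in 3 libraries required (0.0305).

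CDK4 (ENSG00000135446.17) and CDK6 (ENSG00000105810.10) are the kinases that D-type cyclins activate. CDK4 stood at 181, 178 and 167 CPM at rest, at 181, 187 and 199 CPM at 5 h, and at 198, 200 and 190 CPM at 12 h. Its 12 h libraries all lay above its resting libraries, by a small margin. Its log2 fold change was 0.11 at 5 h, with a 95% interval from -0.07 to 0.29, and 0.16 at 12 h, with an interval from -0.02 to 0.34 (edgeR adjusted p = 0.365 and 0.168). Both were called under library totals alone, at 0.25 and 0.35 with adjusted p of 0.013 and 0.00101. The 12 h value was also called with at least 50 counts in 3 libraries required, at 0.24 with an adjusted p of 0.0175.

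CDK6 stood at 429, 477 and 420 CPM at rest, at 422, 440 and 445 CPM at 5 h, and at 366, 386 and 348 CPM at 12 h. Every 12 h library lay below every other library of CDK6, a course found for 10.3% of all IDs tested. The mean was 367 ± 18.7 CPM at 12 h, against 442 ± 31.0 CPM at rest and 436 ± 12.3 CPM at 5 h (SD, n = 3 each). The log2 fold change was -0.27 ± 0.08 (SE) against rest and -0.25 ± 0.08 against 5 h, with edgeR adjusted p of 0.00999 and 0.0216. At 5 h against rest it was -0.02, with a 95% interval from -0.18 to 0.14 (edgeR adjusted p = 0.861). The fall against rest was not called under library totals alone, at -0.08 with an adjusted p of 0.381, nor in limma on the authors' log2 values, at -0.25 with 0.0668, nor without 12 h replicate 3, also at -0.25, with 0.0611. The fall against 5 h lost its call in 6 of 16 alternatives, with adjusted p up to 0.133 in limma, while its log2 fold change stayed between -0.29 and -0.20 in all 16. The 6 included the fits without 5 h replicate 2, 5 h replicate 3, 12 h replicate 1 and 12 h replicate 3.

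CDK2 (ENSG00000123374.11) is the kinase that E-type cyclins activate. It stood at 142, 158 and 171 CPM at rest, at 175, 171 and 183 CPM at 5 h, and at 171, 175 and 190 CPM at 12 h. Its 12 h libraries lay above its resting libraries, with the lowest of the 12 h group almost equal to the highest resting one. The log2 fold change was 0.17 at 5 h, with a 95% interval from -0.02 to 0.36, and 0.19 at 12 h, with an interval from -0.01 to 0.38 (edgeR adjusted p = 0.172 and 0.132). Under library totals alone both were called, at 0.31 and 0.38 with adjusted p of 0.00863 and 0.0021. With at least 50 counts in 3 libraries required, the 12 h value was called at 0.27 with an adjusted p of 0.0206. Between 5 h and 12 h the log2 difference was 0.02, with a 95% interval from -0.17 to 0.21 (edgeR adjusted p = 0.921).

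CDKN1A (ENSG00000124762.14) encodes p21, an inhibitor of cyclin-CDK complexes that is best known as a target of p53 and is also induced by mitogenic signals. It is shown with the 300 bases around its start in RefSeq, since its change was the largest of the 10. The sequence spans chr6:36678464-36678763 of GRCh38.p14 on the plus strand, 250 bases before the start and 50 after it. Capitals mark GGGCGG, the core of a GC box, to which Sp1 and related factors bind. This motif was chosen after the values were seen.
CDKN1A: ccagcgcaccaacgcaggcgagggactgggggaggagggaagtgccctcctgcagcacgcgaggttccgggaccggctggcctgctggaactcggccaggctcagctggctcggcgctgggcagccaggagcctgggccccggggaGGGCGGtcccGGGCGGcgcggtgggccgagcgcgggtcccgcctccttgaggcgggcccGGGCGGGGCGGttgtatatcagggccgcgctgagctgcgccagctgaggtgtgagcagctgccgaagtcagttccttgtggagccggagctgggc
It matched 4 times in either orientation, and the last pair of matches shares a base. A match was found in 45% of 35116 such windows in the RefSeq table, so its presence is common. Nor are 4 matches particular to CDKN1A: windows of others of the 10 genes held from 0 to 7, with 7 for CCNE1 and 6 for E2F1.

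CDKN1A had 2, 2 and 4 counts in the resting libraries, 220, 192 and 334 counts at 5 h and 31, 16 and 24 counts at 12 h. In CPM these were 0.233, 0.220 and 0.414 at rest, 22.2, 14.4 and 18.1 at 5 h, and 2.65, 3.50 and 3.23 at 12 h. The 3 groups did not overlap, with 5 h highest, 12 h between and rest lowest. At rest it fell short of the counts that the low-count filter asks for and passed through the activated libraries. The fitted log2 fold change was 5.90 ± 0.39 (SE) at 5 h against rest and 3.34 ± 0.45 at 12 h against rest, with edgeR adjusted p of 2.92e-11 and 2.31e-06. Only 49 of the 13920 IDs tested had a larger log2 fold change at 5 h, and 124 at 12 h. Since the resting group held 8 counts in all, its ratio was also taken from the pooled counts, scaled for library size, with an exact 95% interval for counting error. It was 61.2 at 5 h, with an interval from 30.9 to 142, and 10.2 at 12 h, with an interval from 4.93 to 24.6. Amplified fragments are not independent molecules, so the intervals cover counting error only.

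Between the time points CDKN1A fell. It averaged 3.13 ± 0.433 CPM at 12 h against 18.2 ± 3.89 CPM at 5 h (SD, n = 3 each), a log2 fold change of -2.56 ± 0.29 (SE, edgeR adjusted p = 4.52e-07). Only 67 IDs tested had a lower log2 fold change in this comparison. A level at 5 h above all libraries of both other groups was found for 8.6% of all IDs tested.

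CDKN1B (ENSG00000111276.11) encodes p27, the inhibitor associated with quiescent T cells. It stood at 43.2, 39.0 and 32.0 CPM at rest, at 25.5, 22.7 and 29.6 CPM at 5 h, and at 44.6, 41.4 and 43.4 CPM at 12 h. Like CCND3, its 5 h libraries lay below all resting and all 12 h libraries, a course found for 8.78% of all IDs tested. The mean was 26.0 ± 3.49 CPM at 5 h against 38.1 ± 5.65 CPM at rest (SD, n = 3 each), a log2 fold change of -0.55 ± 0.15 (SE, edgeR adjusted p = 0.00517). From 5 h to 12 h it gained 0.73 ± 0.15 on the log2 scale (edgeR adjusted p = 0.000583), and 93.3% of IDs tested gained less. At 12 h it averaged 43.1 ± 1.63 CPM against 38.1 ± 5.65 CPM at rest, and the log2 fold change of 0.18 had a 95% interval from -0.12 to 0.49 (edgeR adjusted p = 0.361). Only under library totals alone was the 12 h value called, at 0.38 with an adjusted p of 0.0439.

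E2F1 (ENSG00000101412.13) encodes the transcription factor at the output of this pathway, which in textbook accounts also activates its own gene and CCNE1. Its window in RefSeq is shown because, of the 10 windows kept for these genes, only this window held either E2F site core searched. It spans chr20:33686336-33686635 of GRCh38.p14 on the minus strand, again 250 bases before the start and 50 after it. Capitals mark the match.
E2F1: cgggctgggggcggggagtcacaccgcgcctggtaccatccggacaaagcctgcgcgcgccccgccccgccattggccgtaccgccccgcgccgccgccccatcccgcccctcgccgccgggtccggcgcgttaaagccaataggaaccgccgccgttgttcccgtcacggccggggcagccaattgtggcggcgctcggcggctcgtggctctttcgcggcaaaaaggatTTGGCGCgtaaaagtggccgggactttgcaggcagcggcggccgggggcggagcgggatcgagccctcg
The cores searched were TTCCCGC and TTGGCGC, each on both strands. The single match is to TTGGCGC, on the strand of the gene. TTCCCGC occurs in 6.55% of the 35116 windows, TTGGCGC in 3.04% and either in 9.23%. A match in 1 of 10 windows is close to that background. The 10 windows belong to 7 genes, since CCND3 and CDK6 have several listed starts. CCND2, CCNE2 and CDK2 have no window among the 10. Windows of a chromosome that was left out for these genes were not looked at, so the RefSeq table may still hold starts of genes without a window here.

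E2F1 stood at 21.8, 19.0 and 20.9 CPM at rest, at 31.0, 29.0 and 27.0 CPM at 5 h, and at 33.3, 42.3 and 36.2 CPM at 12 h. All libraries of each time lay above all of the time before, an order without overlap that 2.33% of all IDs tested showed. The log2 fold change against rest was 0.49 ± 0.15 (SE) at 5 h and 0.85 ± 0.15 at 12 h, with edgeR adjusted p of 0.0124 and 0.00011. The mean at 12 h was 37.2 ± 4.58 CPM against 29.0 ± 2.005 CPM at 5 h (SD, n = 3 each), a log2 difference of 0.35 ± 0.15 that was not called (edgeR adjusted p = 0.0863). It was called in limma on the authors' log2 values, with an adjusted p of 0.0389, and with at least 50 counts in 3 libraries required, with 0.0444. The rise at 5 h lost its call without resting replicate 2, the lowest of its group, with a log2 fold change of 0.43 and an adjusted p of 0.0506.

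Ratios of counts between related genes within a library do not depend on library scaling, and gene length cancels when a ratio is compared between groups. In all, 6 ratios were compared over the 3 comparisons, 18 tests. With 3 libraries against 3, the exact permutation test cannot give a two-sided p below 0.1, and no adjusted value was below 0.225. CDKN1A over CDKN1B shifted by 6.57 on the log2 scale at 5 h, where its mean was -0.52 ± 0.28 against -7.09 ± 0.71 at rest (SD, n = 3 each). At 12 h the mean was -3.79 ± 0.26, and no libraries overlapped between any 2 groups. The exact permutation p was 0.1 in all 3 comparisons of this ratio.

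CCNE2 over CDKN1B, an activator of CDK2 over an inhibitor, was 1.64 ± 0.17 at 5 h on the log2 scale, against 0.78 ± 0.32 at rest (SD, n = 3 each). At 12 h it was 0.40 ± 0.12, and its libraries overlapped those at rest. The difference of 12 h minus 5 h was -1.23, and the libraries of these groups did not overlap (exact permutation p = 0.1). CCNE1 and the other inhibitor, CDKN1A, are left out of this ratio. The mean of CDKN1A rose from 0.289 CPM at rest to 18.2 CPM at 5 h. The ratio, chosen with the counts in view, is therefore not a full balance of CDK2 activators and inhibitors.

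CDK6 over CDK4 shifted by less but with a narrow spread. Its log2 ratio was 0.90 ± 0.04 at 12 h, against 1.33 ± 0.09 at rest (SD, n = 3 each), a difference of -0.43. At 5 h it was 1.21 ± 0.04. All 3 groups stood apart, rest and 5 h only narrowly, with an exact permutation p of 0.1 in each comparison. CCND2 over CCND3 was -6.44 ± 0.56 at 5 h and -6.61 ± 0.62 at 12 h, against -7.63 ± 0.74 at rest, and its groups overlapped. CCNE1 over CCNE2 was -2.80 ± 0.16 at 5 h and -2.46 ± 0.49 at 12 h, against -3.15 ± 0.34 at rest, again with overlap. For CDK2 over CDK4 the differences ran from -0.04 to 0.07 on the log2 scale.

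**Figure D3:**
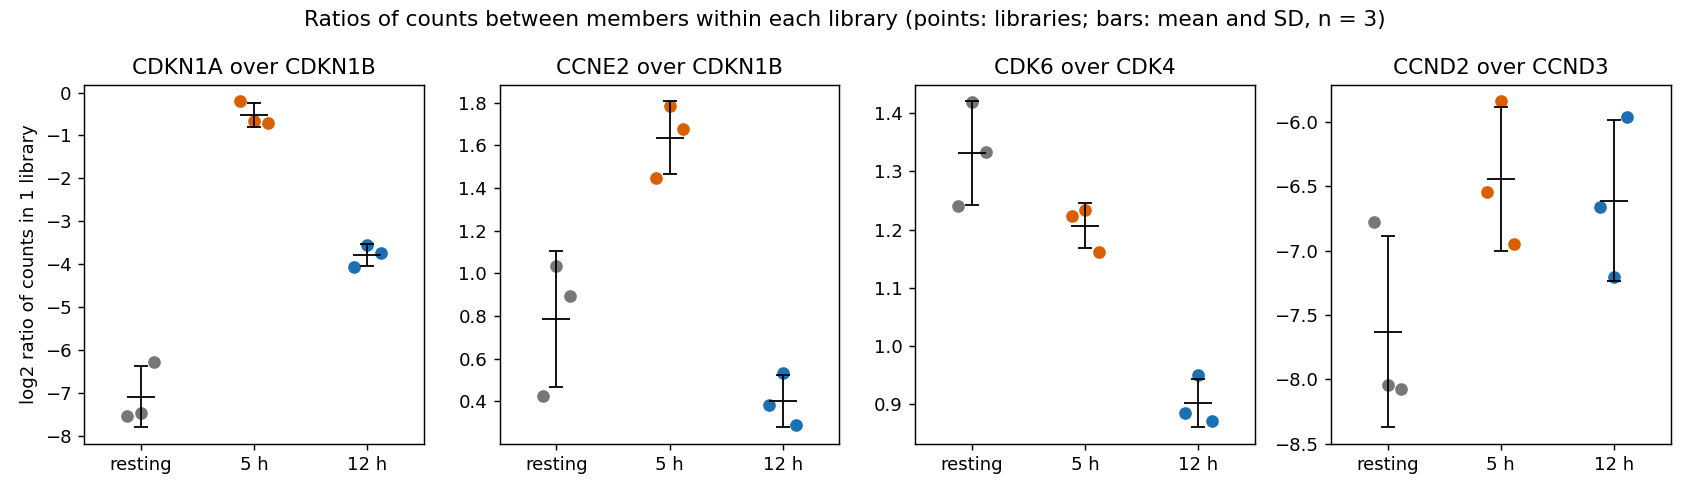
Log2 ratio of the counts of 2 genes in the same library (vertical axes, each with its own scale) for resting, 5 h and 12 h libraries; points are libraries and bars the mean and SD of 3. CDKN1A over CDKN1B is highest at 5 h and between at 12 h, CCNE2 over CDKN1B is highest at 5 h, CDK6 over CDK4 is lowest at 12 h, and CCND2 over CCND3 overlaps between groups.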

How the data were processed

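Per the file headers and labels, the deposited table holds whole-number counts of ribosome footprints for 19569 Ensembl IDs in 9 libraries, without normalization. The authors also deposited log2 values for 11572 IDs. These equal log2 of the count over 1 size factor per library, plus 1, within 5.04e-09. Per the submitters' processing notes, the build was GRCh38.p13, and RSEM, Bowtie, bedtools, DESeq2 and cutadapt 3.2 are listed without roles. How footprints were isolated and how short fragments matching several genes or overlapping genes were counted are steps not given in the sources used here. No other ID had the same counts as any of the 10 genes.

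All 9 libraries were fitted together with edgeR 4.0.16 in R 4.3.3 (TMM, filterByExpr, quasi-likelihood test), which left 13920 IDs, and p-values were adjusted over these by Benjamini-Hochberg. The common biological coefficient of variation was 15.6%. SE and 95% intervals were taken from the test statistic. The same procedure was run on simulated counts that gave all IDs the common spread. It called 22% to 32% of true 1.5-fold changes, 82% to 92% of 2-fold changes and 100% of 4-fold changes. In these simulated counts most 1.5-fold changes thus went uncalled. Only 50 IDs were changed at each fold, far fewer than were called in the real data. The shares therefore do not give a detection limit for the 10 genes, and CDK6 was called at a 1.21-fold fall at 12 h against rest. DESeq2 1.42.0 and limma 3.58.1 served as alternatives. Counting intervals are exact (Clopper-Pearson). The genes and lists were chosen with earlier results of these data known, and the within-library ratios with the counts in view. All 10 genes are named. Levels per coding length, 5 other gene lists, 7 marker lists and genes with like patterns were not analysed here, since no coding lengths and no symbols for other IDs were used.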

Additional observations from a re-analysis of the deposited data

Results flagged for a closer look

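For 5 of the 10 genes the level differed between the 2 times after activation, in the direct test of 12 h against 5 h (quasi-likelihood test of edgeR, Benjamini-Hochberg), where 25.1% of all IDs were called. Without 5 h replicate 3 the count was 3 of 10. For CDKN1A the log2 difference was -2.56 (adjusted p = 4.52e-07), for CCND3 0.68 (2.59e-06) and for CDKN1B 0.73 (0.000583), and all 3 of these calls stood under every one of the 16 alternatives. For CCNE2 it was -0.51 (0.00682), lost under 2 alternatives. For CDK6 it was -0.25 (0.0216), lost under 6. Groups of 3 libraries were not searched for single outlying libraries.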

How the results depend on the processing

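Over the 16 alternatives per comparison, run for 10 genes and 3 comparisons (CCND2 has 15), 445 values kept their side of the threshold, 12 lost a call and 20 gained one, and no called value changed sign. The calls of CCND3 at 5 h, CDKN1A in all comparisons, CDKN1B at 5 h and between times, and E2F1 at 12 h held in every fit. Library totals alone moved the median log2 fold change of all IDs by 0.14 at 5 h and 0.19 at 12 h against rest. They raised the genes called to 8 of 10 at 5 h and 6 of 10 at 12 h, all 6 higher, where 35% and 37.1% of all IDs tested were called. They also raised the share of calls that were higher to 63.9% at 5 h, against 46.5% with TMM, and to 67.7% at 12 h, against 45.1%. Requiring at least 50 counts in 3 libraries, which leaves 10372 IDs and drops CCND2, gave 5 of the 9 genes left at 12 h, against 46.3% of all IDs left. Leaving out 1 library gave 4 to 5 called genes at 5 h, 3 at 12 h and 3 to 5 between times. Same-numbered libraries did not deviate together (correlations -0.06 to 0.09 over 9 pairs, 3 of 9 libraries closest to their own number). With the replicate block, the same numbers of the 10 genes were called, 4, 3 and 5, and 4644, 4689 and 3373 IDs. Leaving out each library for the ratios was added after seeing the data. It turned the sign of CCND2 over CCND3 between times (-0.17, from -0.49 to 0.13) and of all 3 CDK2 over CDK4 differences. Planned values per kilobase and length-scaled shares were not run. Counts were few for CCND2 (53 to 96 per group), whose libraries also spread beyond counting error, and for CDKN1A at rest (8 counts).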
